A study of Mus musculus with 8 samples.

Results

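Kinesins are motor proteins that use ATP to move along microtubules or to take microtubule ends apart, and their genes form a large family in the mouse. The members described here are the genes whose symbol is Kif followed by a number and an optional letter. They numbered 37 of the 34465 genes listed in the deposited gene table. By known function, 12 were placed among the motors of the mitotic spindle, chromosomes and cytokinesis, and 13 among the motors of cargo transport. The other 12 were motors of cilia, hedgehog signalling and microtubule control together with less studied members. These classes were drawn up with earlier results of these data known. RNA of whole mouse liver had been sequenced in 8 libraries, 2 from each of 4 groups. All mice were 3 months old, of strain 129S4/SvJae/FVB, and carried floxed alleles of b-PDGFR (b-PDGFR fl/fl), the platelet-derived growth factor receptor encoded by Pdgfrb. The Cre-negative groups carried no GFAP-Cre (neg), and the Cre-positive groups carried GFAP-Cre (pos), in which the GFAP promoter drives Cre and, per the series' design text, deletes the receptor in hepatic stellate cells. Livers of each genotype came from sham-operated mice or from mice killed 72 h after a partial hepatectomy, the surgical removal of part of the liver. Both the sham and the hepatectomy groups of both genotypes carried the floxed alleles, so there was no group with an unmodified receptor gene.

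In a dividing cell, mitotic kinesins push the spindle poles apart, move and align chromosomes, trim microtubule ends and build the midzone through which the cell divides. Transport kinesins carry vesicles, mitochondria, endosomes and ciliary components in cells that need not divide. Hepatocytes of the adult liver are mostly at rest and re-enter the cell cycle when liver mass is lost. Many genes of the G2 phase and mitosis share a promoter element, the cell cycle genes homology region (CHR), often found near CCAAT boxes.

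The promoter stretches below are shown because the mitotic members moved together in the expression data. RefSeq promoter windows of build GRCm38.p6, from 250 bases before to 50 bases after the annotated start, matched 31 of the 37 members. There was no window for Kif20a, Kif13b, Kif5a, Kif5b, Kif19a and Kif21b. The letters TTTGAA or TTCGAA were searched as the CHR and the letters CCAAT as the CCAAT box, each on both strands, so that TTCAAA and ATTGG also count, and the letters of the motifs did not overlap within the stretches shown. A CHR match was present in 9 of 11 mitotic members (81.8%), 1 of 10 transport members and 3 of 10 others, against 21.7% of all 27025 genes with a window. A CCAAT match was present in 7 of 11 mitotic members (63.6%), 3 of 10 transport members and 4 of 10 others, against 41.1% of all genes. Both motifs together were present in 6 of 11 mitotic members (54.5%), 0 of 10 transport members and 3 of 10 others, against 8.61% of all genes. A CHR match began within 30 bases of the annotated start in 7 of 11 mitotic members (63.6%), 0 of 10 transport members and 2 of 10 others, Kif24 and Kif26b, against 4.02% of all genes with a window. The limit of 30 bases was not set in advance, so these shares are a description. The match of the transport member Kif1a began 44 bases before the start. The stretches of the 7 mitotic members, from 110 bases before to 30 bases after the start, are given 5′ to 3′ on the gene's strand with CHR and CCAAT matches in capitals.
Kif11, chr19:37376272-37376411, + strand: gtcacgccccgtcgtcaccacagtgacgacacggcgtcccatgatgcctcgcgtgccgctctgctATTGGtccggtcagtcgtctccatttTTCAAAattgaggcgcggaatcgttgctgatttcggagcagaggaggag
Kif15, chr9:122950971-122951110, + strand: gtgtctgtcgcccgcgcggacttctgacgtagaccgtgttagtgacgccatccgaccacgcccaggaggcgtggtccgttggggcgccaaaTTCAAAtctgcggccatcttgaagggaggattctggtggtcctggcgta
Kif18b, chr11:102925095-102925234, - strand: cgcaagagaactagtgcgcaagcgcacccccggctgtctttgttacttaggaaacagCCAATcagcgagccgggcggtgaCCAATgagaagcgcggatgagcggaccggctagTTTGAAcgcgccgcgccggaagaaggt
Kif20b, chr19:34922248-34922387, + strand: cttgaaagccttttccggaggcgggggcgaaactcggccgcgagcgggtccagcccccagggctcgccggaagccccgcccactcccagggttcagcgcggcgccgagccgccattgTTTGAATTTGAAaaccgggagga
Kif22, chr7:127042391-127042530, - strand: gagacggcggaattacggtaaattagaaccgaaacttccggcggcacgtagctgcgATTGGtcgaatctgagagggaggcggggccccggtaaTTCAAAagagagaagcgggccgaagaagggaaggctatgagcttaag
Kif23, chr9:61946770-61946909, - strand: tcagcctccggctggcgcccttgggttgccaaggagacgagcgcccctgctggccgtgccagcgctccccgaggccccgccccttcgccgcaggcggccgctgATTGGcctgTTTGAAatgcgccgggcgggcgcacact
Kif4, chrX:100625955-100626094, + strand: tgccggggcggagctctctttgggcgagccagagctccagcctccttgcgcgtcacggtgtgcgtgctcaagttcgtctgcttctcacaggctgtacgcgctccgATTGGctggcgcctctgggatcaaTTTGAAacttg
Of the other members with a CHR match as close to the start, Kif24 rose in the averaged comparison below and Kif26b, named after its values were seen, was not called (fold change 0.36, adjusted p = 0.591). The match of Kif24 lay 26 bases before the start in the form TTCGAA, which reads the same on both strands, and that of Kif26b lay 9 bases before it.
Kif24, chr4:41464819-41464958, - strand: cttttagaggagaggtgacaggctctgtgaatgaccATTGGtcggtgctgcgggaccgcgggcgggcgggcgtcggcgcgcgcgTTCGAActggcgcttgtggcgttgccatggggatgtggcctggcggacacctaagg
Kif26b, chr1:178529015-178529154, + strand: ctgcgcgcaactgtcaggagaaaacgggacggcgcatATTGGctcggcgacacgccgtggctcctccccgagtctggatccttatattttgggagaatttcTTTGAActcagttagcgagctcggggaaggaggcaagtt
For comparison, Kif18a is a mitotic member whose window held neither motif, and Kif1c is a transport member whose window also held neither.
Kif18a, chr2:109280628-109280767, + strand: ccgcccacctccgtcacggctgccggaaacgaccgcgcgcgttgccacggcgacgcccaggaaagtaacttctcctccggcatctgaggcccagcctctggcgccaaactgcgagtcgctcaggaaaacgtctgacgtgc
Kif1c, chr11:70700438-70700577, + strand: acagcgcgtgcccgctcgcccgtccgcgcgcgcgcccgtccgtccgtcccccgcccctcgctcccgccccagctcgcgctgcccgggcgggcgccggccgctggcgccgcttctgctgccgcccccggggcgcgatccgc
Kif2c and Kif14 had their CHR matches farther upstream, at 103 and 228 bases before the start. Kif2b, the mitotic member listed at 0 in every library, had a CCAAT match and no CHR match. These are matches of letters in a window and not measured binding.

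The deposited values are a normalized signal, scaled in a way not given in the sources used here, so levels were compared between libraries and not between genes. A normalized signal of at least 1 on average over the 8 libraries was required for testing, and 16443 genes passed. Of the 37 kinesins, 35 passed. Kif2b, a microtubule depolymerase of kinetochores, was listed at 0 in all 8 libraries, and Kif6 was listed at 0 in 7. The member just outside the minimum was Kif6, at a mean of 0.00109, and those just inside were Kif27 at 1.01, with 2 hepatectomy libraries listed at 0, and Kif17 at 1.42. Kif14, Kif17 and Kif27 had means under 1 over the sham libraries (0.845, 0.942 and 0.691), so they passed through their hepatectomy libraries. Nothing in the labels ties each library to a separate mouse, so the p-values below reflect the spread between these samples alone.

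The libraries summed to a signal of between 8.61766e+06 and 1.15838e+07, the highest being Cre-positive hepatectomy replicate 2, and the depth behind them is unknown. Of 6 hepatocyte markers, 5 were at 1305 or more in every library, while Alb was listed at 0 in 7 of the 8, so that an exact 0 can be a failed estimate. Mki67, a marker of dividing cells, lay between 6.44 and 12.2 in sham and between 30.3 and 221 in hepatectomy libraries. Pdgfrb was not lower in Cre-positive livers beyond the spread: the log2 difference was -0.10 in sham (95% interval -1.01 to 0.81) and -0.23 after hepatectomy (-1.13 to 0.68). Of 6 Kupffer cell and macrophage markers 5 were in the gene table, and they summed to 1055 to 1785 in sham, 1842 and 1390 in Cre-negative hepatectomy and 3282 and 3306 in Cre-positive hepatectomy libraries; their part in the kinesin values was not tested. Over 9 lists of cell type markers, 3 of 48 markers lay above all sham libraries in all 4 hepatectomy libraries (Slc4a1 of the erythroid, Ngp of the neutrophil and Uchl1 of the neural list) and 4 lay below (Tat of the hepatocyte, Lrat of the stellate cell, Kdr and Oit3 of the endothelial list), against 11.2% and 6.2% of all genes tested; these 7 were named after their values were seen. The counts of 3 and 4 of 48 are near those shares of all genes. Slc4a1 was at 0.487 to 1.68 in sham and 4.14 to 40.2 in hepatectomy libraries, Ngp at 0.714 to 2.37 and 2.46 to 11.004, Uchl1 at 0.238 to 2.29 and 4.02 to 16.5, and Lrat at 10.7 to 24.6 and 3.22 to 8.31. All other members of their lists overlapped between sham and hepatectomy. Alas2 of the erythroid list was at 1563 to 1990 in sham and 696 to 1808 in hepatectomy libraries. S100a8 of the neutrophil list was at 54.3 to 301 and 95.6 to 268, and Des of the stellate cell list at 21.3 to 31.7 and 14.8 to 45.2. The part of these markers in the kinesin values was not tested either.

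The question of which kinesins differ in the regenerating liver was put first to hepatectomy against sham averaged over the genotypes, with 4 libraries against 4. All 11 tested mitotic members rose by limma with Benjamini-Hochberg adjusted p under 0.05, as did Kif24, and 0 of 35 kinesins fell (3 were lower at an unadjusted p under 0.05, against 7.75% of all genes). Over all 16443 genes tested, 4.49% passed in the same comparison, 3.64% rising and 0.845% falling. The median log2 fold change was 3.40 over the 11 mitotic members, -0.17 over the 13 transport members and 0.40 over the 11 other members tested, against 0.12 over all genes tested. Because the classes were set with earlier results of these data known, the contrast between them is a description. Kif2a, a depolymerase close in sequence to Kif2c, was placed among the others and had a fold change of -0.36. Leaving aside Kif14, which passed the minimum through its hepatectomy libraries, 10 of 10 mitotic members rose. Whole liver was sequenced, so more cells expressing a gene and more RNA per cell cannot be told apart. Fold changes are of log2(signal + 1), in which the change of a gene of low signal comes out smaller than its ratio.

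**Figure D1:**
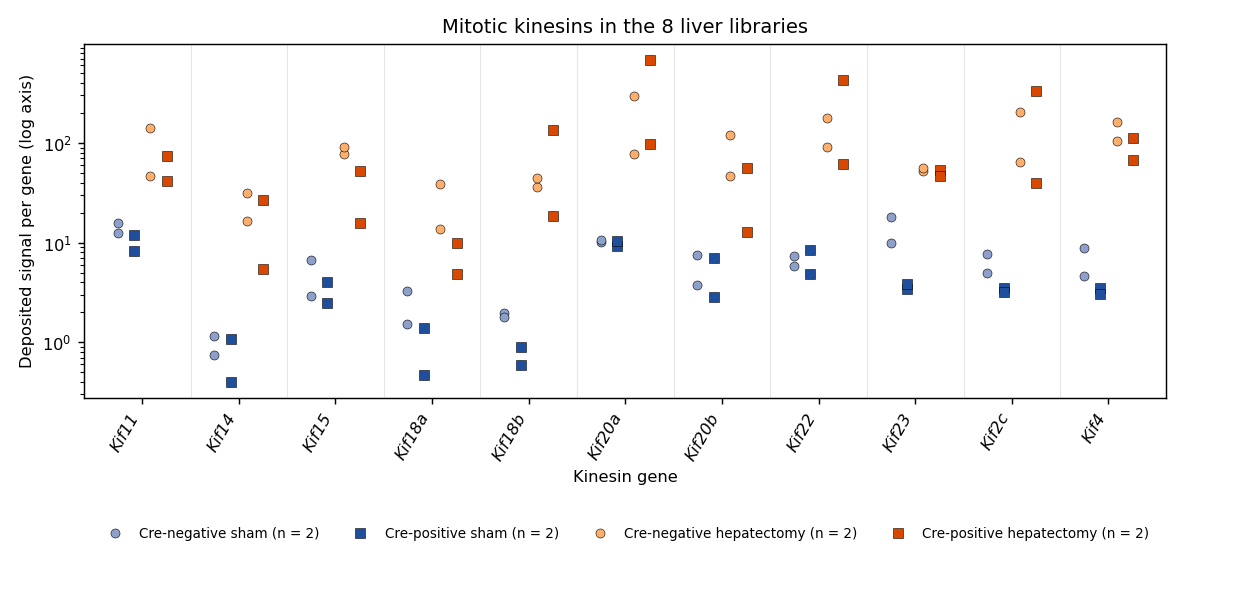
Deposited signal (log axis) of the 11 tested mitotic kinesins in the 8 libraries, with 1 point per library and 2 libraries per group. In each gene the 4 hepatectomy libraries lie above the 4 sham libraries, and the 2 Cre-positive hepatectomy points lie far apart for Kif18b, Kif20a, Kif22 and Kif2c.

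The chromosome-bound motors gave high fold changes. Kif4, a chromokinesin that binds chromosome arms and the spindle midzone, was at a signal of 4.59 and 8.79 in Cre-negative sham, 3.47 and 3.08 in Cre-positive sham, 105 and 163 in Cre-negative hepatectomy and 66.9 and 113 in Cre-positive hepatectomy libraries. Every hepatectomy library was above every sham library, and the mean of the 4 hepatectomy libraries was 22.4 times that of the 4 sham libraries. Kif4 rose by a log2 fold change of 4.26 (SE 0.31, adjusted p = 0.00288), with the smallest adjusted p of the family. Kif22, the chromokinesin that pushes chromosome arms toward the spindle equator, was at 5.88, 7.31, 8.40 and 4.89 in the sham libraries, at 91.9 and 178 in Cre-negative hepatectomy and at 61.0 and 433 in Cre-positive hepatectomy libraries. Its groups did not overlap, and it rose by 4.28 (SE 0.60, adjusted p = 0.0126), with the Cre-positive hepatectomy libraries 7.10-fold apart.

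The motors that shape microtubule ends followed. Kif2c, the depolymerase that corrects faulty attachments at centromeres, was at 4.95, 7.60, 3.50 and 3.19 in the sham libraries, at 63.8 and 206 in Cre-negative hepatectomy and at 39.4 and 329 in Cre-positive hepatectomy libraries. It rose by 4.38 (SE 0.68, adjusted p = 0.0188), the highest estimate of the family, and its Cre-positive hepatectomy libraries were 8.36-fold apart. Kif18b, which controls the length of astral microtubules, was at 1.98, 1.78, 0.888 and 0.586 in the sham libraries, at 36.2 and 44.5 in Cre-negative hepatectomy and at 18.3 and 134 in Cre-positive hepatectomy libraries. It rose by 4.36 (SE 0.58, adjusted p = 0.0102), and its sham values were all under 2 in signal while the lowest hepatectomy value was 18.3. Kif18a, which dampens the movements of chromosomes at the spindle equator, was lower in signal: 1.53, 3.26, 0.473 and 1.38 in sham, 13.6 and 39.0 in Cre-negative hepatectomy and 9.83 and 4.87 in Cre-positive hepatectomy libraries. It rose by 2.49 (SE 0.44, adjusted p = 0.0289), and its lowest hepatectomy value, 4.87, lay nearest to the highest sham value, 3.26.

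Among the motors that hold the spindle bipolar, Kif11, which slides antiparallel microtubules and drives the poles apart, was at 12.5, 15.9, 8.30 and 11.95 in the sham libraries, at 46.9 and 140.1 in Cre-negative hepatectomy and at 74.6 and 41.2 in Cre-positive hepatectomy libraries. It rose by 2.40 (SE 0.40, adjusted p = 0.0229), the lowest estimate of the mitotic class. Kif15, which can take over part of the work of Kif11, was at 2.89, 6.69, 2.45 and 4.01 in sham, at 76.9 and 91.2 in Cre-negative hepatectomy and at 52.4 and 15.6 in Cre-positive hepatectomy libraries. The Cre-positive hepatectomy libraries were both below the Cre-negative ones, and all 4 were above sham. Kif15 rose by 3.40 (SE 0.44, adjusted p = 0.00947).

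The remaining mitotic members act in the midzone and in cytokinesis. Kif23, which forms the centralspindlin complex with Racgap1, was at 9.93 and 18.0 in Cre-negative sham, 3.41 and 3.88 in Cre-positive sham, 52.5 and 56.7 in Cre-negative hepatectomy and 54.2 and 46.9 in Cre-positive hepatectomy libraries. Its 4 hepatectomy values lay within 46.9 to 56.7, the closest of the class, and it rose by 2.71 (SE 0.26, adjusted p = 0.00381). Kif20a, which brings the chromosomal passenger complex to the midzone, was at 10.2, 10.5, 9.18 and 10.4 in sham, at 78.4 and 294 in Cre-negative hepatectomy and at 98.5 and 680.2 in Cre-positive hepatectomy libraries. Its sham values were nearly equal and its hepatectomy values spread widely. It rose by 4.17 (SE 0.65, adjusted p = 0.0189). Kif20b, which acts late in cytokinesis, was at 3.71, 7.47, 6.94 and 2.83 in sham, at 46.7 and 122 in Cre-negative hepatectomy and at 55.9 and 12.9 in Cre-positive hepatectomy libraries. It rose by 2.97 (SE 0.56, adjusted p = 0.0342), with the lowest hepatectomy value again in Cre-positive replicate 2. Kif14, which works with citron kinase in abscission, was at 0.740, 1.16, 1.08 and 0.400 in sham, at 16.4 and 31.7 in Cre-negative hepatectomy and at 5.37 and 26.5 in Cre-positive hepatectomy libraries. It rose by 3.29 (SE 0.51, adjusted p = 0.0181).

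Exons of 3 of these genes overlap a protein-coding gene on the opposite strand in the GENCODE annotation of GRCm38, and the labels do not say whether strand was kept. Mettl15, which overlaps Kif18a, was at 18.4 to 22.8 in sham and 12.4 to 28.3 in hepatectomy libraries. Cdc23, which overlaps Kif20a, was at 98.7 to 113 in sham and 87.4 to 189 in hepatectomy libraries. Pdzd11, which overlaps Kif4, was at 113 to 165 in sham and 180.1 to 259.99 in hepatectomy libraries. Of the 3 overlapping genes, only Pdzd11 lay above every sham library in every hepatectomy library. Reads within the shared exon bases cannot be assigned to 1 gene of a pair without strand, and their part in the kinesin values was not tested.

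How many kinesins passed depended on single libraries. The direction of the mitotic class could not, because in its 11 tested members every hepatectomy library lay above every sham library. Of the alternative settings, only other scalings and a correction for GC content could have turned a sign. In the averaged comparison fewer kinesins passed with any 1 sham or Cre-negative hepatectomy library left out, and more without Cre-positive hepatectomy replicate 1. The number called over all genes also rose in that last setting, and for the others it is not given here. With 1 library left out, the median of the mitotic class lay between 3.21 and 3.82. All 11 mitotic members had positive fold changes in each of the 16 alternative settings tried, with class medians of 2.64 to 4.23, and Kif4 and Kif23 passed in all 16. Kif20b passed in 7 of the 16, the fewest of the class.

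**Figure D2:**
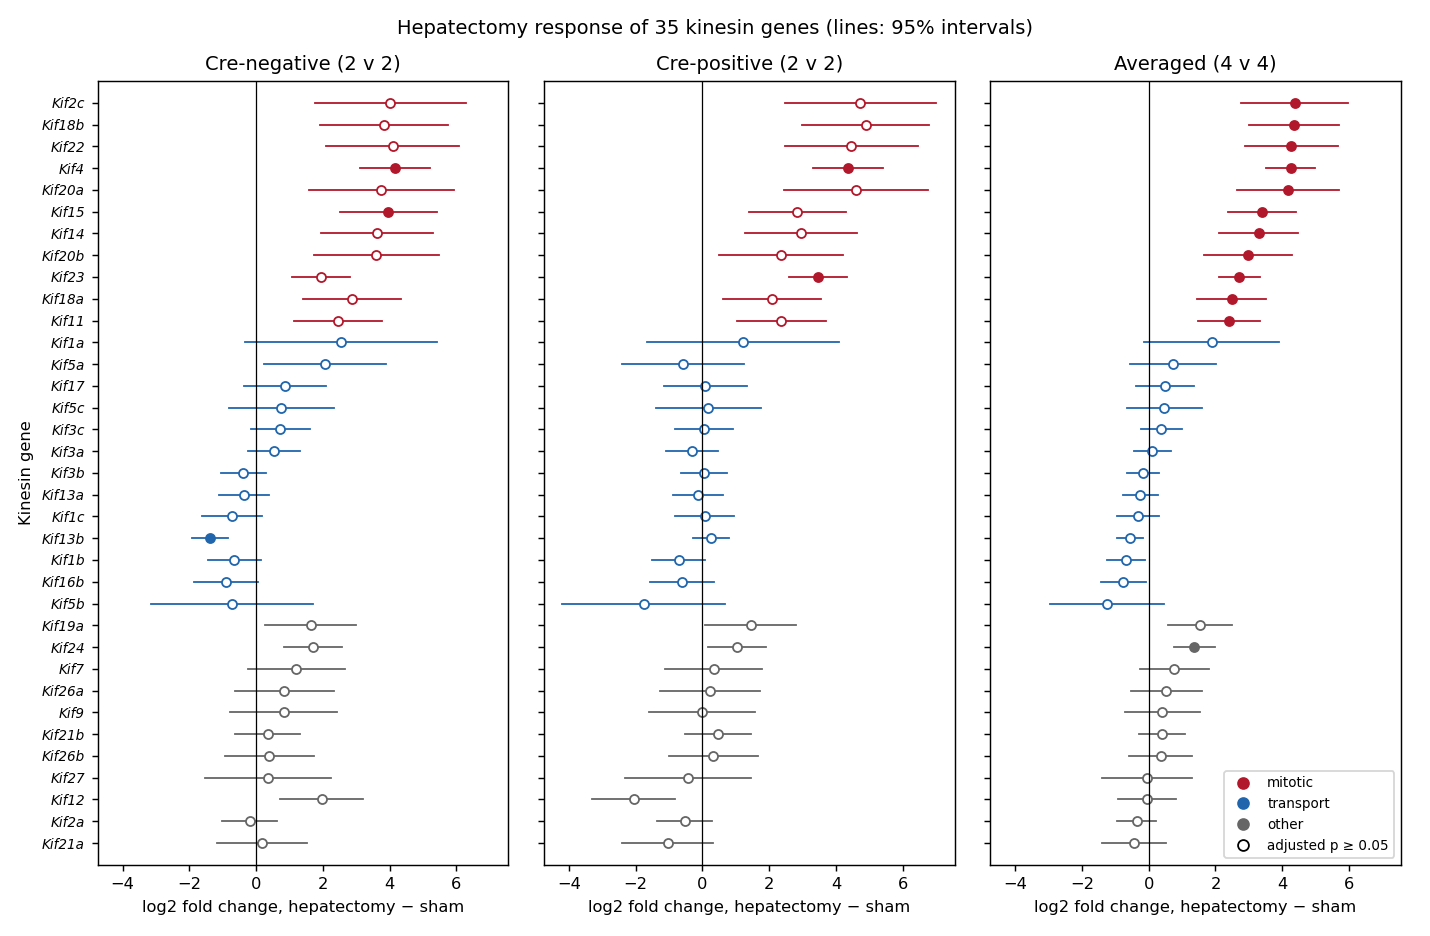
Log2 fold change of hepatectomy against sham with 95% intervals for the 35 tested kinesins, by genotype and averaged; filled points have adjusted p under 0.05. The 11 mitotic members (red) lie between 2.40 and 4.38 in the averaged panel, and the transport (blue) and other (grey) members lie between -1.25 and 1.88, with Kif24 the only one filled.

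Within each genotype, with 2 libraries against 2, the same class led. In Cre-negative livers all 11 mitotic members had positive fold changes (median 3.75, against 0.21 over all genes tested), and 2 rose over all genes: Kif4 by 4.15 (SE 0.44, adjusted p = 0.0203) and Kif15 by 3.95 (SE 0.62, adjusted p = 0.0413). Kif13b fell, and 32 of 35 kinesins did not pass; of all genes tested 1.11% passed, 1.01% rising and 0.103% falling. In Cre-positive livers all 11 mitotic members were again positive (median 3.47, against 0.023), and Kif4 rose by 4.36 (SE 0.44, adjusted p = 0.0176) and Kif23 by 3.47 (SE 0.37, adjusted p = 0.0176). No kinesin fell there by limma (1 was lower at an unadjusted p under 0.05, against 5.2% of all genes), and of all genes tested 0.943% passed, 0.845% rising and 0.0973% falling. At an unadjusted p under 0.05, 11 of 11 mitotic members were higher in either genotype, against 15.2% of all genes in Cre-negative and 8.3% in Cre-positive livers. Kif14, which passed the minimum through its hepatectomy libraries, is among the 11. The comparisons within the genotypes have no library in common, though the spread used in each came from all 8. The Cre-negative count fell without any 1 of the 4 sham libraries or either Cre-negative hepatectomy library. It rose without either Cre-positive hepatectomy library. The Cre-positive count fell without any 1 of the 4 sham libraries and rose without either Cre-positive hepatectomy library. How many of all genes passed in these settings is not given here. With 1 library left out, the mitotic median lay between 3.17 and 4.08 in Cre-negative and between 3.22 and 4.01 in Cre-positive livers.

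Counting libraries rather than tests, all 4 hepatectomy libraries lay above all 4 sham libraries in 11 of 11 mitotic members, 0 of 13 transport members and 2 of 11 others. They lay below in 0, 2 and 0. Over all genes tested, 11.2% lay wholly above and 6.2% wholly below. Within Cre-negative livers 22 of 35 kinesins had both hepatectomy libraries above both sham libraries and 7 had them below, against 39.7% and 23.3% of all genes tested. Within Cre-positive livers 15 were above and 5 below, against 23.9% and 19.5%. The mitotic members made up 11 of those above in each genotype and 0 of those below. Kif14 is counted above in both genotypes, Kif17 above in Cre-negative and Kif27 below in Cre-positive livers. These genes passed the minimum through their hepatectomy libraries.

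The hepatectomy libraries of a group differed from each other in these genes. Among Cre-negative hepatectomy livers, replicate 2 was above replicate 1 in 11 of 11 mitotic members, with a median ratio of 1.93. It was above in 7 of 13 transport members and in 0 of 11 others. The share of all genes higher in replicate 2 was not counted for either genotype. Among Cre-positive hepatectomy livers, replicate 2 was above replicate 1 in 6 of 11 mitotic members. Members of low and of high GC content of the transcript differed in this, at a cut of 45% set for description. The cut falls in the gap between Kif15 (42.7%) and Kif23 (46.3%), so the split is no test. Kif18a, Kif20b, Kif11 and Kif15, the 4 mitotic members under 45% GC, were all lower in replicate 2, by log2 differences of -2.03 to -0.84. Of the 7 at 45% GC or more, 6 were higher in replicate 2, by up to 3.03, and Kif23 differed by -0.20. Across the 11 mitotic genes, which are not independent and share both libraries, the difference between these libraries correlated with GC at r = 0.87 (rho = 0.92). The value was 0.62 (rho = 0.66) across the 35 kinesins tested and 0.52 (rho = 0.64) across 12926 genes tested with a GC value. For the difference between the Cre-negative hepatectomy libraries, r was -0.25 across the 11 mitotic genes. It was -0.45 across the 35 kinesins and -0.094 across the 12926 genes. After a correction for GC, chosen after seeing the data, the median of the mitotic class averaged over genotypes was 3.67, and 11 of 11 members rose. Within genotypes, 9 of 11 mitotic members then rose in Cre-negative and 9 of 11 in Cre-positive livers. Of the 12926 genes tested with this correction 8.63% were called in the averaged comparison, 3.77% in Cre-negative and 2.48% in Cre-positive livers.

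**Figure D3:**
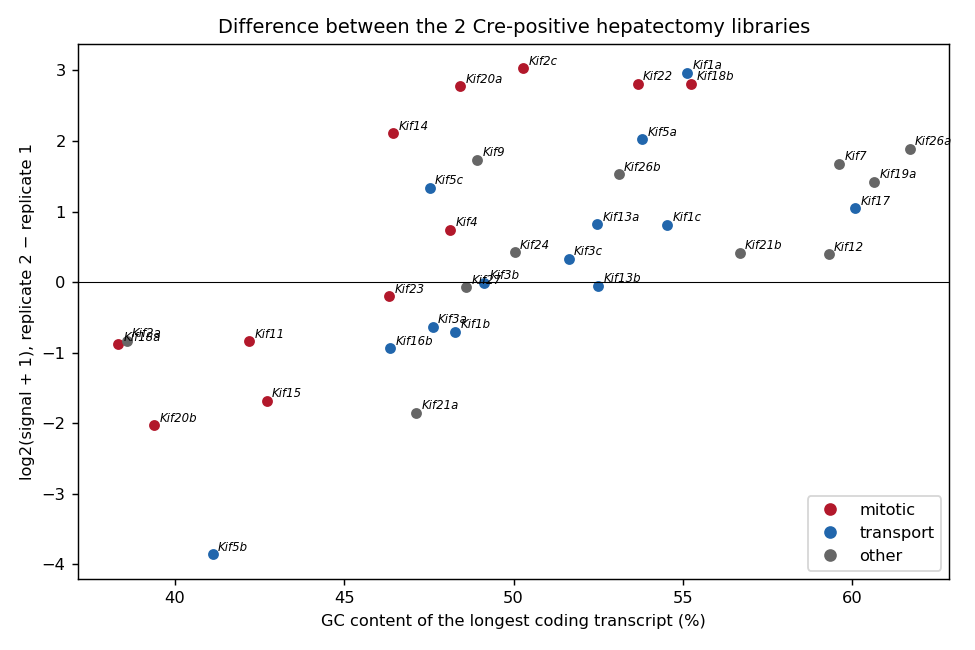
Difference in log2(signal + 1) between the Cre-positive hepatectomy libraries, replicate 2 minus replicate 1, against the GC content (%) of the longest coding transcript, with 1 point per tested kinesin. The mitotic members under 45% GC lie below 0 and most of those above it lie over 0; Kif5b, at 41.1% GC, lies at -3.86.

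Of the 13 transport kinesins tested, 0 were called by limma in the averaged comparison (3 were lower and 0 higher at an unadjusted p under 0.05, against 7.75% and 16.1% of all genes), with fold changes from -1.25 to 1.88. With 4.49% of all genes called, a count of 0 of 13 is near the background. In Cre-negative livers both hepatectomy libraries lay above both sham libraries in 5 of the 13 and below them in 7. Kif17, which passed the minimum through its hepatectomy libraries, is among the 5. Of all genes tested, 39.7% lay above and 23.3% below there. In Cre-positive livers 1 lay above and 2 below, against 23.9% and 19.5% of all genes. Kif13b, which carries membrane cargo and binds the scaffold Dlg1, was at 484, 418, 467 and 391 in the sham libraries, at 155 and 188 in Cre-negative hepatectomy and at 519 and 499 in Cre-positive hepatectomy libraries. The Cre-negative hepatectomy libraries lay below all others and the Cre-positive ones above all sham libraries. Kif13b fell by 1.39 in Cre-negative livers (SE 0.23, adjusted p = 0.0474), and the fold change in Cre-positive livers was 0.25 (SE 0.23, adjusted p = 0.644). The Cre-negative call held in 6 of 17 alternative settings. The difference of the responses, 1.65 (95% interval 0.87 to 2.42), did not pass (adjusted p = 0.399).

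Kif1b, a motor for mitochondria and synaptic vesicle precursors, was at 1303, 968, 1274 and 998 in sham, at 588 and 858 in Cre-negative hepatectomy and at 880.0 and 540 in Cre-positive hepatectomy libraries. All 4 hepatectomy libraries were below all sham libraries, and the averaged fold change of -0.68 (95% interval -1.24 to -0.12) did not pass (adjusted p = 0.151). Kif16b, an endosome motor named after its values were seen, did the same: 80.4 to 97.8 in sham and 36.1 to 77.3 in hepatectomy libraries, with a fold change of -0.76 (adjusted p = 0.177). Kif1c, a vesicle motor of many tissues, was at 1983, 1897, 1681 and 1829 in sham, at 851 and 1617 in Cre-negative hepatectomy and at 1386 and 2427 in Cre-positive hepatectomy libraries. Its groups overlapped, with a fold change of -0.33 (95% interval -0.96 to 0.30). Kif5b, the broadly expressed heavy chain of conventional kinesin, was at 717, 741, 688 and 663 in sham, at 432 and 445 in Cre-negative hepatectomy and at 758 and 51.2 in Cre-positive hepatectomy libraries. The single value of 51.2 stood apart from the other 7, and the averaged fold change of -1.25 had a 95% interval from -2.97 to 0.47. It was -0.28 without Cre-positive hepatectomy replicate 2, the library with that value, and -2.21 (adjusted p = 0.000902) without Cre-positive hepatectomy replicate 1. The ciliary motor subunits Kif3a and Kif3b had averaged fold changes of 0.11 (95% interval -0.45 to 0.66) and -0.17 (-0.65 to 0.31).

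Kif1a and Kif5a, known as motors of neurons and named here after their values were seen, differed widely between hepatectomy libraries. Kif1a was at 1.65 to 3.48 in the sham libraries, at 63.0 and 5.81 in Cre-negative hepatectomy and at 1.66 and 19.8 in Cre-positive hepatectomy libraries. Kif5a was at 3.49 to 8.37 in sham, at 40.1 and 14.5 in Cre-negative hepatectomy and at 1.54 and 9.34 in Cre-positive hepatectomy libraries. In both genes 1 Cre-negative hepatectomy library was far above the rest, and neither passed in any comparison. Of 6 neural markers 4 were in the gene table, and their summed signal was 2.89 to 4.47 in sham, 32.0 and 18.0 in Cre-negative hepatectomy and 7.67 and 20.8 in Cre-positive hepatectomy libraries; Snap25 and Stmn2, both defining markers, were listed at 0 in some libraries. The part of these markers in the 2 results was not tested.

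**Figure D4:**
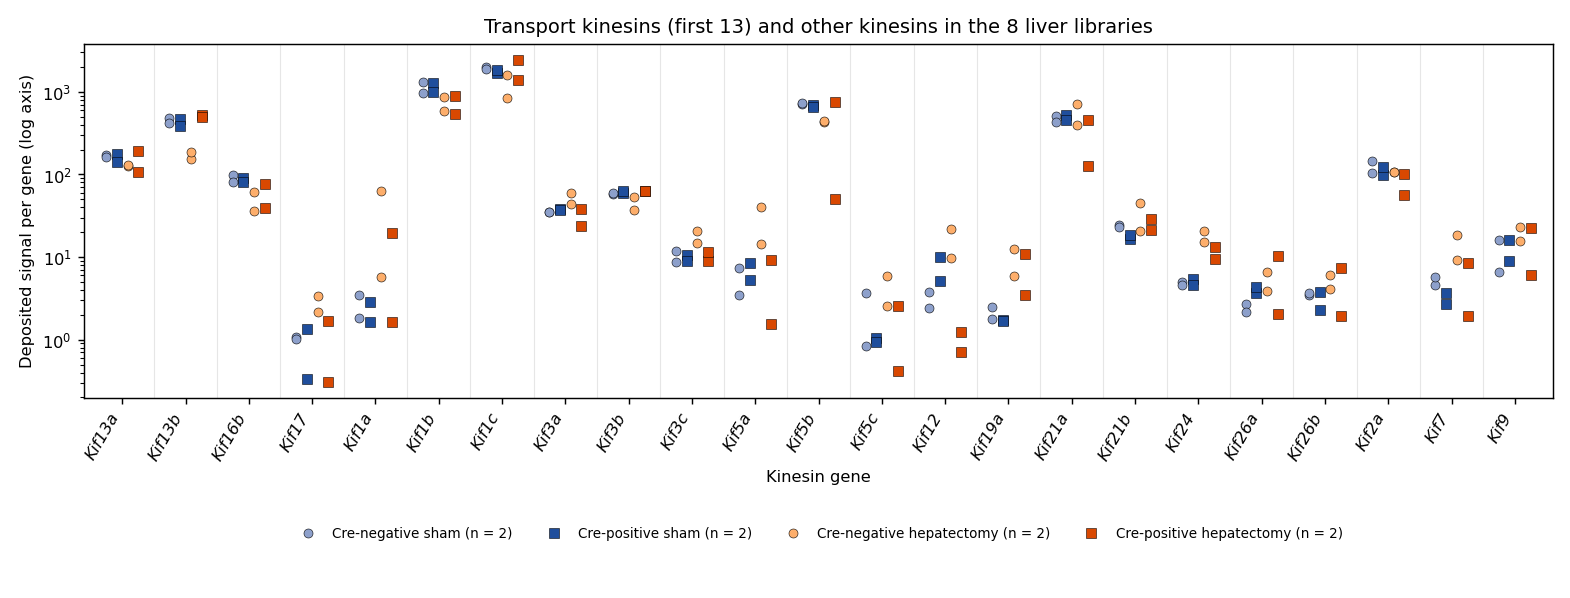
Deposited signal (log axis) of the 13 transport kinesins and of the 10 other kinesins tested that were above 0 in every library, with 1 point per library and 2 libraries per group. Most genes overlap between sham (blue) and hepatectomy (orange); Kif24 and Kif19a lie higher and Kif1b and Kif16b lower in all 4 hepatectomy libraries, and Kif5b has 1 low Cre-positive hepatectomy library.

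Among the other members, Kif24, which removes centriolar microtubules and restrains the growth of cilia, was the 1 of 11 tested that rose. It was at 4.93, 4.56, 5.38 and 4.65 in sham, at 20.6 and 15.1 in Cre-negative hepatectomy and at 9.54 and 13.1 in Cre-positive hepatectomy libraries. The sham libraries were close together and all 4 hepatectomy libraries were above them, and Kif24 rose by 1.36 (SE 0.26, adjusted p = 0.0356). It passed in 8 of 16 alternative settings. Kif19a, a motor that limits ciliary length and was named after its values were seen, was at 1.66 to 2.46 in sham and 3.46 to 12.5 in hepatectomy libraries, without overlap, with a fold change of 1.54 that did not pass (adjusted p = 0.0883).

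The members of this class with the highest mean signal overlapped between sham and hepatectomy. Kif21a, which restrains microtubule growth at the cell cortex, was at 515, 426, 530.4 and 459 in sham, at 710 and 394 in Cre-negative hepatectomy and at 456 and 126 in Cre-positive hepatectomy libraries, with a fold change of -0.43 (95% interval -1.39 to 0.53). Kif2a, a depolymerase close in sequence to Kif2c that also acts in resting cells, was at 106, 144, 98.0 and 125 in sham, at 108 and 107 in Cre-negative hepatectomy and at 102 and 57.1 in Cre-positive hepatectomy libraries, with a fold change of -0.36 (95% interval -0.94 to 0.22). Kif21b, which holds back microtubule growth in neurons and immune cells, was at 24.6, 23.4, 16.5 and 18.6 in sham and 44.7, 20.9, 21.1 and 28.5 in the hepatectomy libraries in the same order of groups. Kif9, a motor of motile cilia and sperm flagella, was at 6.55, 16.1, 9.05 and 16.0 in sham and 23.3, 15.7, 6.12 and 22.7 in hepatectomy libraries. None of these 4 genes was past the threshold. The other 6 tested members of the class, Kif7, Kif12, Kif19a, Kif26a, Kif26b and Kif27, had averaged fold changes between -0.050 and 1.54.

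Whether kinesins differed with the genotype was asked in sham livers, after hepatectomy, and as the difference of the 2 responses. By limma 0 of 35 kinesins passed in each of the 3 comparisons, with 1, 5 and 4 at an unadjusted p under 0.05. Over all genes tested 0.00608%, 0.0182% and 0.0122% passed in either direction, and 0.888%, 18.3% and 8.09% were at an unadjusted p under 0.05, so the counts of 5 and 4 were near the background. All 11 mitotic members were lower in Cre-positive than in Cre-negative sham livers (median -0.46, against -0.031 over all genes tested, of which 56.3% were lower), and 10 of 11 were lower with median-of-ratios scaling or with quantile normalization. Without Cre-negative sham replicate 2 or Cre-positive sham replicate 2 it was 8 of 11. The lowest was Kif23, at -1.64 (95% interval -2.51 to -0.77, adjusted p = 1), whose Cre-positive sham values of 3.41 and 3.88 were below both Cre-negative ones. After hepatectomy 8 of 11 mitotic members were lower in Cre-positive livers (median -0.54, against -0.23 over all genes, of which 62.8% were lower), and 6 of 11 with either of those scalings or with the GC correction. Single libraries moved this: 11 of 11 were lower without Cre-positive hepatectomy replicate 2 (median -0.96), 10 of 11 without Cre-negative hepatectomy replicate 1 (-0.90), 6 of 11 without Cre-negative hepatectomy replicate 2 (-0.059), and 6 of 11 without Cre-positive hepatectomy replicate 1 (-0.21). Kif13b had the smallest adjusted p there, with a log2 difference of 1.57 (95% interval 1.03 to 2.12, adjusted p = 0.0988). Without Cre-positive hepatectomy replicate 1, 6 kinesins passed after hepatectomy and 3 for the difference of responses, where 2217 and 771 of 16557 genes passed.

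Kif12, a less studied member linked to bile duct disease in humans, was named after its values were seen. It was at 3.73 and 2.42 in Cre-negative sham, 5.12 and 10.01 in Cre-positive sham, 22.0 and 9.73 in Cre-negative hepatectomy and 0.713 and 1.25 in Cre-positive hepatectomy libraries. The Cre-negative hepatectomy libraries were above and the Cre-positive ones below the sham libraries of their genotype. Its log2 fold change was 1.96 in Cre-negative livers (adjusted p = 0.12) and -2.06 in Cre-positive livers (adjusted p = 0.156). The 5 cholangiocyte markers summed to 399 to 505 in sham, 714 and 497 in Cre-negative hepatectomy and 1751 and 499 in Cre-positive hepatectomy libraries. Of these markers Sox9 was named after its values were seen. It was at 3.69 to 13.7 in sham, 56.3 and 37.1 in Cre-negative hepatectomy and 9.66 and 9.53 in Cre-positive hepatectomy libraries. Krt7, Epcam and Krt19 were also higher in both Cre-negative than in both Cre-positive hepatectomy libraries, Krt19 barely so in replicate 2 (36.6 against 35.4). Spp1 was at 549 and 383 in Cre-negative and at 1714 and 436 in Cre-positive hepatectomy libraries. None was at 0, and Spp1 made up most of the sum. Their part in the Kif12 values was not tested.

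Isoforms of the kinesins were examined as shares of a gene's signal, without a test. The isoform table held 160 isoforms of the 37 members, with 28 members having several. Among the 27 tested genes with several, 91 isoforms reached 10% of the gene's signal in some library, and in 5 of them, from 3 genes, sham and hepatectomy shares did not overlap. Over the 35298 isoforms chosen the same way from all genes tested it was 4.58%, so the kinesins' count was near the background, and the 3 genes are described as single cases. Kif20a-201 held 42.3%, 10.5%, 47.8% and 1.20% of Kif20a in the sham libraries and 94.2%, 99.5%, 93.5% and 87.4% in the hepatectomy libraries, and Kif20a-203 held most of the remainder in sham. The signal of Kif20a-201 was 0.125 to 4.39 in sham and 73.8 to 594 in hepatectomy libraries, while that of Kif20a-203 was 3.62 to 10.2 in sham and 0.780 to 20.1 in hepatectomy libraries. Kif20a-202 was at 1.18 or less in sham and at 0.705 to 65.9 in hepatectomy libraries, the highest in Cre-positive replicate 2. Most of the hepatectomy signal of Kif20a was thus assigned to Kif20a-201 in each of the 4 libraries.

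Kif20b went from one isoform toward the other. Kif20b-201 held 86.1% to 93.6% of Kif20b in sham, and in hepatectomy libraries it held 9.07% and 28.1% of the signal of Cre-negative livers and 8.6e-05% and 80.4% of that of Cre-positive livers. Kif20b-202 held the rest. Cre-positive hepatectomy replicate 2 was thus near the sham libraries in this share, while the other 3 were far from them. Kif24-004 held 45.7% to 68.9% of Kif24 in sham and 18.7% to 29.2% in hepatectomy libraries. Isoform shares are estimates from reads that mostly fit several isoforms, and the names could not be matched to a release of the annotation, so no exon is given for them.

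**Figure D5:**
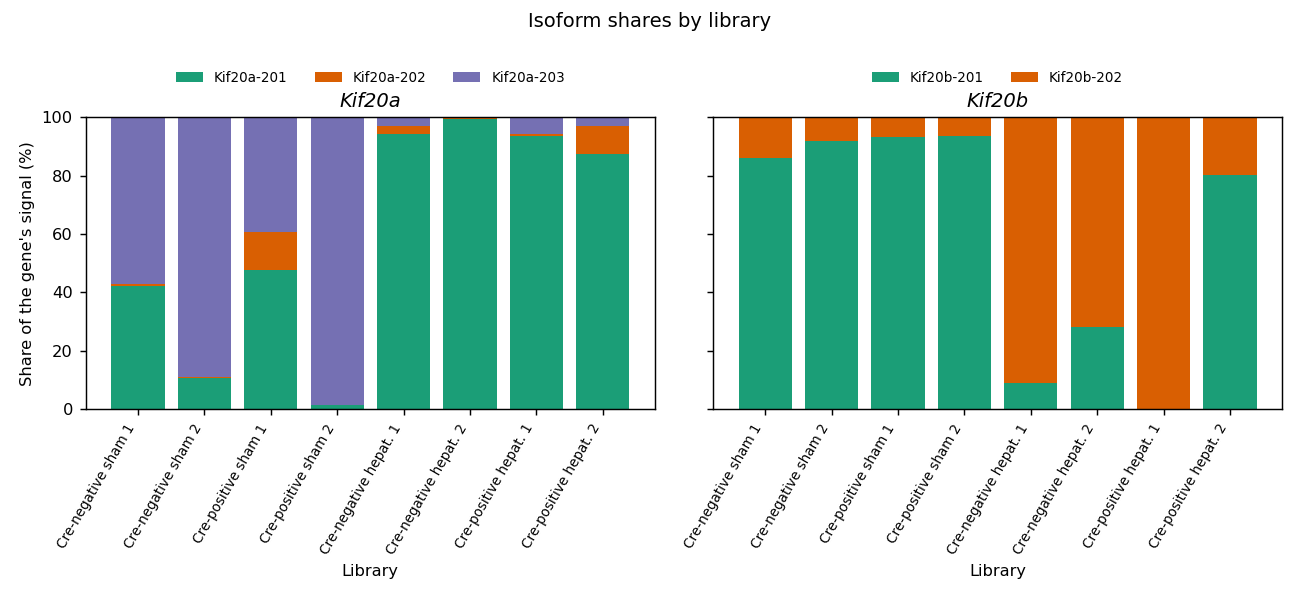
Share (%) of the signal of Kif20a and Kif20b held by each listed isoform in each of the 8 libraries; bars stack to 100. Kif20a-201 holds 87.4% or more of Kif20a in the 4 hepatectomy libraries, and Kif20b-202 holds most of Kif20b in 3 of them.

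Genes that work with the kinesins were counted in the same averaged comparison. Of the 21 partners and regulators of mitotic kinesins, 17 rose and 0 fell, against 3.64% and 0.845% of all genes tested. Their median was 3.83, against 0.12 over all genes. The list was drawn up with earlier results of these data known. Kntc1, a kinetochore protein that helps recruit dynein, was at 2.73 to 5.93 in sham and 146 to 166 in hepatectomy libraries and rose by 4.88 (SE 0.27, adjusted p = 0.00139). Anln, the contractile ring protein anillin, rose by 3.43 (SE 0.29, adjusted p = 0.00288), Hmmr, a spindle assembly factor, by 4.72 (SE 0.46, adjusted p = 0.00381) and Cep55, a midbody protein, by 3.22 (SE 0.32, adjusted p = 0.0039). Racgap1, the partner of Kif23 in centralspindlin, rose by 4.68 and Prc1, the midzone partner of Kif4, by 4.23. The 4 that did not pass were Mybl2, Cit, Lin9 and Lin54, with fold changes of 1.39, 1.69, 0.32 and 0.21. Within genotypes 9 of the 21 rose in Cre-negative and 10 in Cre-positive livers, against 1.01% and 0.845% of all genes tested.

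Kinesin superfamily genes named outside the Kif numbering gave 3 that rose of 5 tested, against 3.64% of all genes. Cenpe, the kinetochore motor that carries chromosomes to the equator, was at 1.45 to 5.34 in sham and 24.0 to 169.8 in hepatectomy libraries and rose by 4.23 (SE 0.45, adjusted p = 0.00479). Kifc1, a minus-end motor of the spindle, and its near-identical copy Kifc5b rose by 4.55 and 3.85, and their values are uncertain because reads can be shared between copies. Kifc2 and Kifc3 had fold changes of -0.38 and 0.50 that did not pass.

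Partners of the transport motors were called about as often as all genes, of which 4.49% passed. Of 17 tested light chains and cargo adaptors, 0 were called by limma (1 was higher and 2 were lower at an unadjusted p under 0.05), with a median of -0.061. Klc4, a kinesin light chain, lay between 810 and 929 in sham and between 572 and 932 in hepatectomy libraries, and Spag9, a scaffold that binds kinesin light chains, between 518 and 605 in sham and 148 and 552 in hepatectomy libraries. Of 22 tested subunits of dynein, dynactin and their regulators, which drive transport in the opposite direction, 1 rose: Dynll1, a light chain shared with other complexes, was at 95.8 to 119 in sham and 205 to 416 in hepatectomy libraries and rose by 1.67 (SE 0.24, adjusted p = 0.014). Dync1h1, the motor subunit of dynein, had a fold change of 0.10 (95% interval -0.23 to 0.43).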

How the data were processed

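RNA was sequenced from 8 whole-liver libraries, 2 per group, and samples were grouped by their titles. The authors deposited 2 tables of normalized signal, for genes and for isoforms. The submitters' processing notes name TopHat, Cufflinks, mm9 and NCBIM37, with normalization and versions not given in the sources used here. Because the signal is no count, depth is unknown and no counting interval can be given. Gene values and summed isoform values of kinesins differed by at most 9.18e-07. No values recurred between replicates of a group among kinesins above 0 (0 cases). Other genes and pairs of libraries were not covered by this check. Among the cell type markers, Ttr was listed at 47592.2 in hepatectomy replicate 2 of both genotypes. Tat was listed at 61715.1 in sham replicate 2 of both genotypes. The 16443 genes whose mean signal reached 1 were tested on log2(signal + 1) with limma 3.58.1 (R 4.3.3). The fit had 4 group means, 4 residual and 3.25 prior degrees of freedom, and an intensity trend in the moderation of the spread. Tests were two-sided; p-values were adjusted over all genes tested by the Benjamini-Hochberg method, with a threshold of 0.05. The script was tested on simulated data. The members, classes and partner lists were chosen with earlier results of these data known. Values in every library are printed for mitotic members with a mean of at least 1, members past the threshold in any comparison and up to 4 members of each other class with the highest mean; of each partner list, up to 4 called genes of smallest adjusted p or otherwise up to 2 of the highest mean. Racgap1 and Prc1, Lin9, Lin54, Cit and Mybl2, Kifc2, Kifc3 and Dync1h1 were named in addition, after their values were seen. Alternatives covered the pseudocount, the filter, scaling, the trend, the libraries in the fit and a GC correction, the last chosen after seeing the data. Promoters are from RefSeq (GRCm38.p6); GC content and gene overlaps are from GENCODE vM21 (GRCm38), another build than the authors' mm9, so no coordinates were carried across. Scripts also used Python 3.11.15 with pandas 2.3.3 and matplotlib 3.10.9.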

Additional observations from a re-analysis of the deposited data

Results flagged for a closer look

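The Kif13b libraries lay on opposite sides of sham in the genotypes: both Cre-negative hepatectomy libraries (155 and 188) lay below both Cre-negative sham libraries (484 and 418), and both Cre-positive hepatectomy libraries (519 and 499) lay above both Cre-positive sham libraries (467 and 391). Kif13b and Kif12 were picked for this pattern, and how many of all genes show it was not counted. Of all genes tested, 39.7% lay above and 23.3% below in Cre-negative livers, and 23.9% and 19.5% in Cre-positive livers. The intervals given for both genes were taken after that choice. For Kif13b the difference of the log2 responses, Cre-positive minus Cre-negative, was 1.65 (95% interval 0.87 to 2.42), and limma gave it an adjusted p of 0.399. The Cre-negative response passed the threshold and the Cre-positive one, 0.25 (95% interval -0.29 to 0.80), did not. The difference lay between 1.51 and 1.78 over 16 alternative settings and passed the threshold in 1 of them.

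The Kif12 libraries lay on the reverse sides: its Cre-negative hepatectomy libraries (22.0 and 9.73) lay above both Cre-negative sham libraries (3.73 and 2.42), and its Cre-positive ones (0.713 and 1.25) lay below both Cre-positive sham libraries (5.12 and 10.01). The difference of the log2 responses was -4.03 (95% interval -5.79 to -2.27), with an adjusted p of 0.321, and neither response passed. The difference lay between -5.04 and -2.35 over 16 alternative settings and passed in 0 of them.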

How the results depend on the processing

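The mitotic members kept positive fold changes against sham under every alternative run, in each genotype and averaged. As their sham and hepatectomy libraries did not overlap, only the scalings and the GC correction could have turned a sign. The counts of kinesins past the threshold varied. Averaged over genotypes the count of 12 was 4 with no filter on low values, where 23636 genes were tested, and lay between 2 and 20 with 1 library left out. In Cre-negative livers the count of 3 was 1 with no filter, 1 with quantile normalization, 5 with only the compared groups in the fit, 11 with the GC correction, which tested 12926 genes, and between 0 and 14 with 1 library left out. In Cre-positive livers the count of 2 was 0 with no filter (13 at an unadjusted p under 0.05), 0 with only the compared groups in the fit (12 at an unadjusted p under 0.05), 9 with the GC correction and between 0 and 11 with 1 library left out. For genotype after hepatectomy it was between 0 and 6, and for the difference of responses between 0 and 3, with 1 library left out; the 6 and the 3 came without Cre-positive hepatectomy replicate 1, and the cause was not tested. For genotype in sham the count was 0 in every setting. Where 1 library is left out, the lone sample of its group is assumed to vary like the other groups.

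Averaged fold changes that turned, of genes not past the threshold with all 8 libraries, were those of Kif3a with median-of-ratios scaling (-0.029) and quantile normalization (-0.078), Kif26b with quantile normalization (-0.061), Kif12 (0.13) and Kif27 (0.077) with a pseudocount of 5, and Kif2a with the GC correction (0.072). With 1 library left out the value lay between -0.051 and 0.26 for Kif3a, -0.32 and 0.23 for Kif12, -0.90 and 0.031 for Kif21a, -0.021 and 0.74 for Kif26b, -0.16 and 0.61 for Kif27 and -0.026 and 0.84 for Kif9. The causes were not tested. Scaling moved the median of all genes from 0.12 to -0.0094 (median-of-ratios) or -0.030 (quantile).

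No paired analysis was possible because the labels number the libraries from 1 to 8 and pair none between groups. With 2 libraries per group and an unknown depth, a kinesin that missed the threshold is not shown to be unchanged.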
